A study of Homo sapiens with 20 samples.

Results

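HepaRG, a human hepatoma cell line whose progenitors can become hepatocyte-like and biliary-like cells, was followed here from day 15 after seeding (D15) to day 30 in medium that never held dimethyl sulfoxide (D30 − DMSO). The comparison takes 8 of the 20 arrays of the series, 4 of D15 and 4 of D30 − DMSO, chosen by their titles, with RNA from independent cultures. All of these cultures grew in William's E medium with fetal serum, antibiotics, insulin and the glucocorticoid hydrocortisone. D15 is the stage at which DMSO could be added, so D15 and D30 − DMSO differ by age in culture and not by solvent. The groups set beside them are D4, the progenitor stage, and D30 + DMSO, which received 2% DMSO after D15. The fit, the filter on dim probes and the mean levels over 20 arrays also used 4 arrays of D34 ± DMSO, cultures of the D30 + DMSO kind kept without the solvent from day 30 to day 34. HepaRG comes from 1 tumour and grows as a mixture of cell types, so a level on an array is an average over that mixture. In such bulk RNA, fewer cells of a type and less RNA per cell cannot be told apart.

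After commitment, liver cells build up their products in an order. Abundant secreted proteins such as albumin appear early, while enzymes of glucose release, bile acid synthesis and drug oxidation are typical of mature hepatocytes and respond to insulin, glucocorticoids and nuclear receptors. Expression of proliferation genes falls as progenitors become confluent. The comparison asks which of these programmes had already levelled off at D15 and which still drifted without DMSO.

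Levels are Agilent processed signals in log2 relative to the 75th percentile of each array, so that 0 is that percentile and 1 unit is 2-fold. The 75th percentile lay between 340 and 448 intensity units on the 8 arrays, and between 65.0% and 74.2% of their spots were well above background. All 6 hepatocyte markers examined, ALB, TTR, APOA1, SERPINA1, FGB and AHSG, were well above background on all 8 arrays. Of 6 biliary markers, KRT7, KRT19, SOX9 and SPP1 were, and EPCAM and CFTR were on no array. The arrays lay on 4 slides. Slide 2 held D15 replicate 1 and D30 − DMSO replicate 2, slide 3 held D15 replicate 2 and D30 − DMSO replicate 1, slide 4 held D15 replicates 3 and 4 and D30 − DMSO replicate 4, and slide 1 held D30 − DMSO replicate 3. Slide 4 was scanned in a session of its own. Deviations from the group means were correlated across genes between D15 and D30 − DMSO arrays. The 4 such pairs that shared a slide had r between 0.27 and 0.59. The 12 that did not ran from -0.55 to 0.39, with a median of -0.22. Of these, the pairs scanned in the same session had r of 0.33, 0.39, 0.17 and -0.0031. The pairs across sessions lay between -0.55 and -0.17. D15 replicates 3 and 4, both on slide 4, had r = 0.13. D15 replicate 1 and D30 − DMSO replicate 4 lay farthest from their groups, with root mean square deviations of 0.496 and 0.491. Values with the slide as a block, and within slides 2, 3 and 4, are therefore given beside the main results. The parts of the slide and of the scan session in them were not tested further.

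Very few genes passed the test over these 2 weeks, and all that passed were higher at D30 − DMSO. Of 22069 genes tested with limma, 3 (0.0136%) were called higher once p-values were adjusted by Benjamini and Hochberg (below 0.005) and the change exceeded 2-fold. None (0%) was called lower. They were ANGPTL8, FAM99A and a long intergenic RNA on chromosome 5. At an adjusted p below 0.05 without a limit of fold, 10 genes (0.0453%) were higher and 0 lower. At an unadjusted p below 0.05, 380 genes (1.72%) were higher and 265 (1.2%) lower, which makes 645 (2.92%). In 2 simulations with independent noise on each array, 5.11% and 4.95% of unchanged genes lay below that threshold, as such noise gives by construction. The real arrays of a slide were correlated (consensus correlation 0.43), so the simulated shares cannot be set against 2.92%. A slide block gave 707 (3.2%) higher and 795 (3.6%) lower at that threshold. The median change over all genes was -0.01 log2 units, and 90% of the genes lay between -0.32 and 0.39. Only 177 genes (0.802%) had fitted changes of more than 2-fold. For the step before, D4 to D15, those limits were -1.01 and 1.33, 2726 genes (12.4%) had fitted changes above 2-fold, and 2115 (9.58%) were called. For 18437 genes (83.5%) the 95% confidence interval of the change from D15 to D30 − DMSO lay inside 2-fold in both directions.

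**Figure D1:**
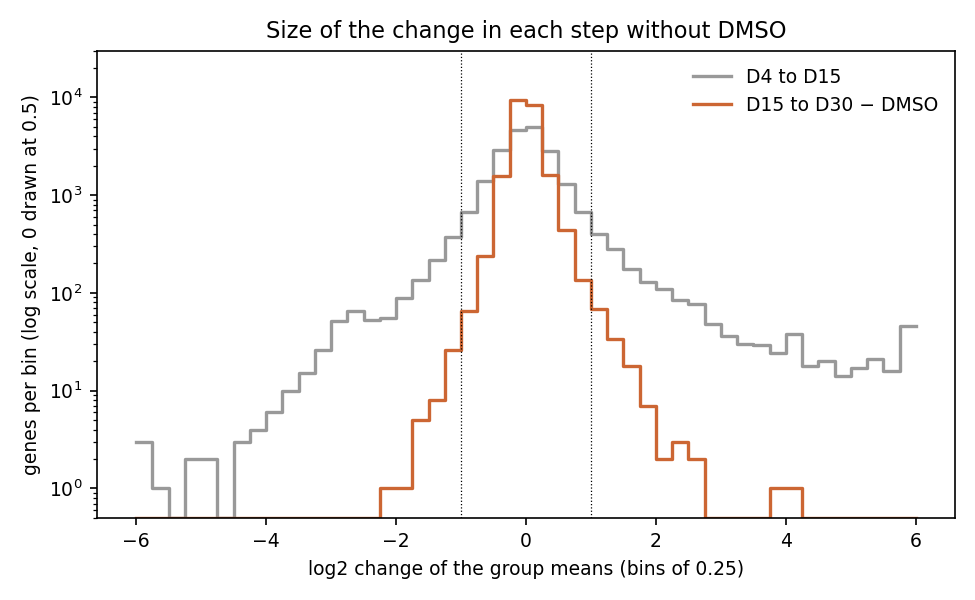
Histogram of the fitted log2 changes of 22069 genes, in bins of 0.25, for D4 to D15 (grey) and for D15 to D30 − DMSO (orange), with the number of genes per bin on a log axis; the outermost bins also hold the genes beyond them, and dotted lines mark 2-fold. The second step is much narrower, with 177 genes beyond 2-fold against 2726 in the first. Its right side reaches farther than its left, but the farthest gene, FAM99A (4.19), was well above background on 0 D15 arrays.

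Of the genes at an adjusted p below 0.05, ANGPTL8, G6PC1, PKLR and CYP3A4 were well above background on all 8 arrays under a current symbol. Only ANGPTL8 among them was called. They share a place in hepatocyte metabolism. The 250 bases upstream of their annotated starts are shown because these genes were higher together. The sequences are from RefSeq (GRCh38.p14) and are written 5′ to 3′ on the strand of the gene; capitals mark the letters AGGTCA (a nuclear receptor half-site) or its reverse complement and CACGTG (an E-box), which do not overlap each other here. PKLR has a pair of annotated starts, and which of them was active in these cells was not tested.
ANGPTL8, chr19:11239369-11239618, plus strand: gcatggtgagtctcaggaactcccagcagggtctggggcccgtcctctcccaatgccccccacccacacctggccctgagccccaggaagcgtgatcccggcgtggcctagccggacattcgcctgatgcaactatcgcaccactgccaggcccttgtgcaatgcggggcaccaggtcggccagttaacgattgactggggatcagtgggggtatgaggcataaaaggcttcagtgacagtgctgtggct
G6PC1, chr17:42900549-42900798, plus strand: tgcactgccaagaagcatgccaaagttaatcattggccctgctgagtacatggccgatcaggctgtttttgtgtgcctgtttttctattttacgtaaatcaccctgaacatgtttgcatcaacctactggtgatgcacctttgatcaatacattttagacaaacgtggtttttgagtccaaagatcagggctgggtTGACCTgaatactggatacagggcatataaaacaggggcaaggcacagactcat
CYP3A4, chr7:99784185-99784434, minus strand: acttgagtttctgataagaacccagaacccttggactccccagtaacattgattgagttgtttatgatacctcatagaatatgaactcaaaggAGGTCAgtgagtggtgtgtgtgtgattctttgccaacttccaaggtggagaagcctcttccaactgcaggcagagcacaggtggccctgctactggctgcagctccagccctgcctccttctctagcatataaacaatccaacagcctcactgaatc
PKLR, chr1:155300953-155301202, minus strand: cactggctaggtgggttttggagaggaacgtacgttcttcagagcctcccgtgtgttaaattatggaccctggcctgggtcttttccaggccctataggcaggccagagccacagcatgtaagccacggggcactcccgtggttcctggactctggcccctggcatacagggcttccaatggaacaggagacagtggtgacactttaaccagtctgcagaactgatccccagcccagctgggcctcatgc
PKLR, chr1:155301439-155301688, minus strand: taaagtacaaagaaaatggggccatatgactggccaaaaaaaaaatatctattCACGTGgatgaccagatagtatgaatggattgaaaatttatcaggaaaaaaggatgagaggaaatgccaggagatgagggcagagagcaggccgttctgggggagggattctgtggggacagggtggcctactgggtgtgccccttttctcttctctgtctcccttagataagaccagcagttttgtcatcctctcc

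Searched on both strands, the AGGTCA letters were found once each in the windows of CYP3A4 and G6PC1, and in 12.1% of 35116 promoter windows of the same length. CACGTG was found once in the second window of PKLR (6.34% of all windows). The window of ANGPTL8 held neither. These matches describe the letters and not a bound site.

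ANGPTL8 (NM_018687), a secreted liver protein that restrains lipoprotein lipase, had the smallest p. Its levels were -2.74, -2.87, -2.89 and -1.76 in D15 replicates 1 to 4 and 0.13, 0.31, 0.13 and 0.14 in D30 − DMSO replicates 1 to 4. The D30 − DMSO arrays were nearly equal and all lay above all D15 arrays, of which replicate 4 was the highest. ANGPTL8 was 6.71-fold higher (log2 change 2.75, SE 0.28, limma adjusted p = 0.000294), and the change was 2.82 with the slide as a block and 3.05, 3.01 and 2.46 within slides 2, 3 and 4. It was called on leaving out any 1 of the 8 arrays, with adjusted p between 2.03e-05 and 0.00295.

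G6PC1 (NM_000151), the catalytic subunit of glucose-6-phosphatase that lets hepatocytes release glucose, stood at -1.31, -1.29, -1.86 and -0.16 at D15. At D30 − DMSO it stood at 1.37, 1.44, 1.49 and 0.57, so that the groups did not overlap and both replicates numbered 4, on slide 4, came closest to each other. The change was 2.37 (SE 0.35, limma adjusted p = 0.0101), 2.21 with the slide as a block and 2.75, 2.66 and 1.58 within slides 2, 3 and 4. The adjusted p rose to between 0.0595 and 0.0686 without D15 replicate 2 or 3 or without D30 − DMSO replicate 1 or 3, and stayed below 0.05 without any of the other 4. PKLR (NM_000298), the pyruvate kinase of liver at the end of glycolysis, was at -1.89, -2.23, -2.31 and -1.52 at D15 and at -0.89, -0.91, -0.87 and -1.0 at D30 − DMSO. Its D30 − DMSO arrays lay close together above all D15 arrays. The change of PKLR was 1.07 (SE 0.17, limma adjusted p = 0.0156), 1.01 with the slide as a block and 0.98, 1.34 and 0.91 within slides 2, 3 and 4. Its adjusted p was between 0.0676 and 0.116 without D15 replicate 2 or 3 or without D30 − DMSO replicate 1, 2 or 3. Enzymes of opposite directions of the glucose pathway were thus both higher at an adjusted p below 0.05 with all 8 arrays.

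CYP3A4 (NM_017460), the main drug-oxidising cytochrome P450 of adult liver, had levels of 1.46, 1.64, 1.08 and 2.25 at D15. The D30 − DMSO levels were 3.35, 3.49, 3.44 and 2.48, so that replicate 4 lay only just above the highest D15 array. CYP3A4 was 3.00-fold higher (log2 change 1.59, SE 0.25, limma adjusted p = 0.0156; adjusted p = 0.0492 with the slide as a block). Within slides 2, 3 and 4 the change was 2.04, 1.71 and 0.82. Leaving out any 1 array other than the replicates numbered 4 raised the adjusted p to between 0.0683 and 0.106. With DMSO over the same days the mean level went from 1.6 to 7.26, a change of 5.65.

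The other genes described at an adjusted p below 0.05 are less known or dimmer. The long intergenic RNA, lincRNA:chr5:61931044-61948469_R, named by the array for a region of chromosome 5 (the files give hg19 as the build of the design), stood at 1.43, 1.57, 1.42 and 1.69 at D15 and at 3.03, 3.11, 2.80 and 2.74 at D30 − DMSO. Both groups were tight and did not overlap. Its change was 1.39 (SE 0.19, limma adjusted p = 0.00448), and 1.67, 1.45 and 1.18 within slides 2, 3 and 4. Leaving out 1 array gave adjusted p between 0.00476 and 0.0336, and it was called only without D15 replicate 4.

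FAM99A (NR_026643), a non-coding RNA of liver, was well above background on 0 of 4 D15 arrays and on all 4 D30 − DMSO arrays. Its levels were -7.86, -5.91, -8.53 and -4.59 at D15, and -2.52, -2.73, -2.94 and -1.93 at D30 − DMSO. In the main processing it was at least 4.56-fold higher, as a bound against the dimmest signals still well above background. Its limma adjusted p was 0.00448, and 0.00925 with the slide as a block. Over the main fit and the alternatives, its fitted log2 change ran from 0.89 to 4.90. Without 1 array it was called only when D15 replicate 4 was left out, and otherwise its adjusted p lay between 0.00752 and 0.0294. In D30 + DMSO, FAM99A was well above background on 0 of 4 arrays.

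ADAMTS4 (NM_005099), a metalloproteinase that cleaves the proteoglycan aggrecan, was at -4.11, -4.07, -4.11 and -3.97 at D15 and at -1.81, -1.87, -2.30 and -2.55 at D30 − DMSO. It was well above background on 3 of the 4 D15 arrays, and the groups lay apart by more than 1 unit. Its change was 1.93 (SE 0.28, limma adjusted p = 0.00813; 0.000811 with the slide as a block), and the adjusted p was 0.0611 without D30 − DMSO replicate 1. MS4A10 (NM_206893), a membrane protein of the MS4A family, and DYDC2 (NM_032372), named for its DPY30 domain, were well above background on 0 D15 arrays and 2 D30 − DMSO arrays each. In the main processing MS4A10 was at least 1.45-fold higher (limma adjusted p = 0.00715) and DYDC2 at least 1.10-fold higher (limma adjusted p = 0.0103). Over the main fit and the alternatives, their lowest fitted log2 changes were 0.43 and 0.20. For DYDC2 the adjusted p was between 0.0566 and 0.075 without D15 replicate 1, 2 or 3 or without D30 − DMSO replicate 1.

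**Figure D2:**
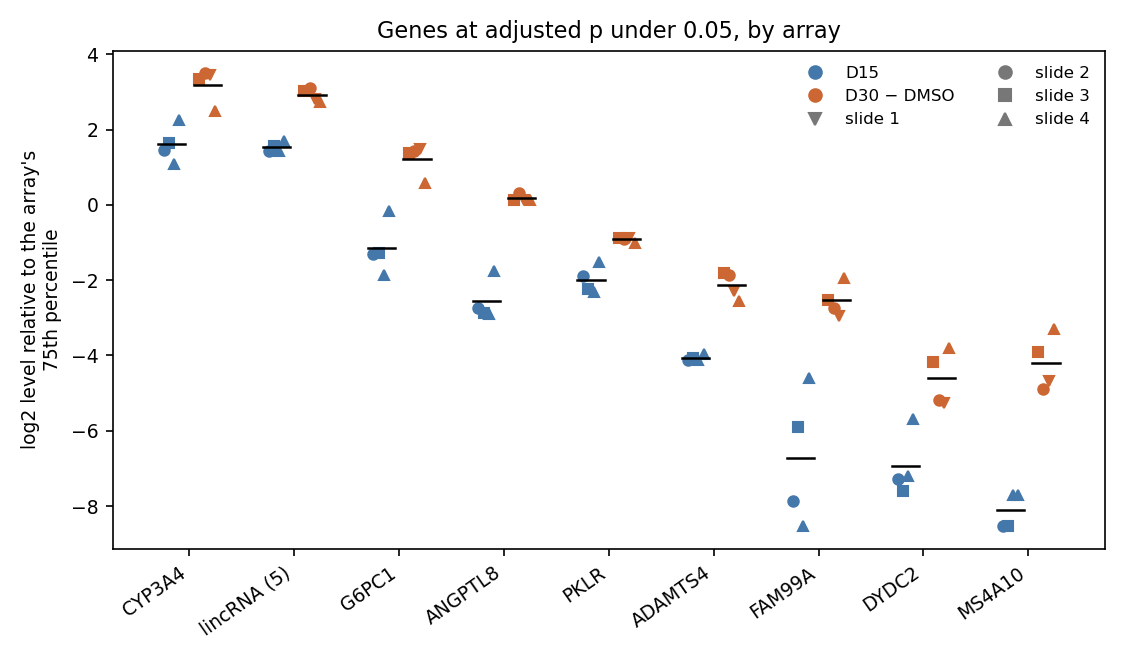
Log2 level relative to the 75th percentile of the array for 9 genes at an adjusted p below 0.05; blue points are the 4 D15 arrays, orange points the 4 D30 − DMSO arrays, the shape gives the slide and black bars the group means. No gene overlaps between the groups; CYP3A4 and G6PC1 come closest on slide 4, and FAM99A, DYDC2 and MS4A10 lie in the dim range where no D15 array was well above background.

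Of the 31 gene groups, the secreted liver proteins held the most members whose arrays lay apart. Among 47 hepatocyte plasma proteins tested, the median change was 0.34, beside -0.01 for all genes, and 39 (83%) had a change above 0, beside 48.7% of all genes. No member passed an adjusted p below 0.05. In 13 members all 4 D30 − DMSO arrays lay above all 4 D15 arrays, and in none below; over all genes 298 (1.35%) and 194 (0.879%) did so. The mean level of the group was 3.42 ± 0.22 (SD, n = 4) at D15 and 3.93 ± 0.17 at D30 − DMSO, with D15 replicate 4 at 3.71 above D30 − DMSO replicate 4 at 3.67. The median change was 0.32 with the slide as a block, and 0.52, 0.65 and -0.05 within slides 2, 3 and 4. Without the arrays of the second scan session it was 0.59. AHSG, SERPINC1, F7, F9, C8B, PROZ and SERPINA1 are named below after their values were seen.

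PLG (NM_000301), the zymogen of the clot-dissolving protease plasmin, had the largest fitted change of the group. It stood at 0.35, -1.44, -1.84 and -0.45 at D15 and at 1.5, 1.08, 0.90 and 3.27 at D30 − DMSO. Replicate 4 of D30 − DMSO stood far above the others, and the change was 2.53 (SE 0.61, limma adjusted p = 0.392; 0.0492 with the slide as a block). Within slides 2, 3 and 4 it was 0.73, 2.94 and 4.42, and without that array it was 2.00. AHSG (NM_001622), the fetuin that keeps calcium phosphate in solution, was at 1.75, 2.00, 1.93 and 2.53 at D15 and at 3.08, 3.32, 3.35 and 3.57 at D30 − DMSO. These groups lay well apart on every slide, with a change of 1.28 (limma adjusted p = 0.0673). SERPINC1 (NM_000488), the thrombin inhibitor antithrombin, was at 5.70, 5.43, 5.15 and 5.94 at D15 and at 6.61, 6.53, 6.58 and 5.99 at D30 − DMSO, with the replicates numbered 4 nearly equal. Clotting factors F7 (1.16) and F9 (1.35) and the complement component C8B (0.97) had changes of similar size with limma adjusted p of 0.639 or more. PROZ, a cofactor in the inhibition of factor X, was well above background on no D15 array and on all D30 − DMSO arrays, and was at least 1.93-fold higher (limma adjusted p = 0.195).

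The most abundant plasma proteins had fitted changes near 0. ALB (NM_000477), the main plasma protein, was at 10.09, 9.64, 10.35 and 10.31 at D15 and at 9.97, 9.85, 9.94 and 10.07 at D30 − DMSO. The groups overlapped, and the change was -0.14 with a 95% interval from -0.68 to 0.39. TTR, the carrier of thyroxine and retinol-binding protein, had a change of 0.20 (-0.23 to 0.63), and SERPINA1, the antiprotease of plasma, of -0.03 (-0.57 to 0.52). Split by the mean over all 20 arrays, the 24 plasma proteins of lower level had a median change of 0.65 with 24 above 0 and 11 not overlapping, whereas the 23 of higher level had 0.22 with 15 above 0 and 2 not overlapping. Over all genes the same split gave medians of 0.00 and -0.01, with 5563 of 11035 genes of lower level above 0 and 162 not overlapping upward, and 5179 of 11034 of higher level above 0 and 136 not overlapping upward. The 28 acute-phase proteins split alike, with 0.42 for the lower 14 and -0.01 for the higher 14. Several of them are also in the plasma protein group, so these splits are not independent. HP, which binds free haemoglobin, had the highest level of these and had a change of -0.08 (-0.55 to 0.38). No spot on the 8 arrays was saturated.

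**Figure D3:**
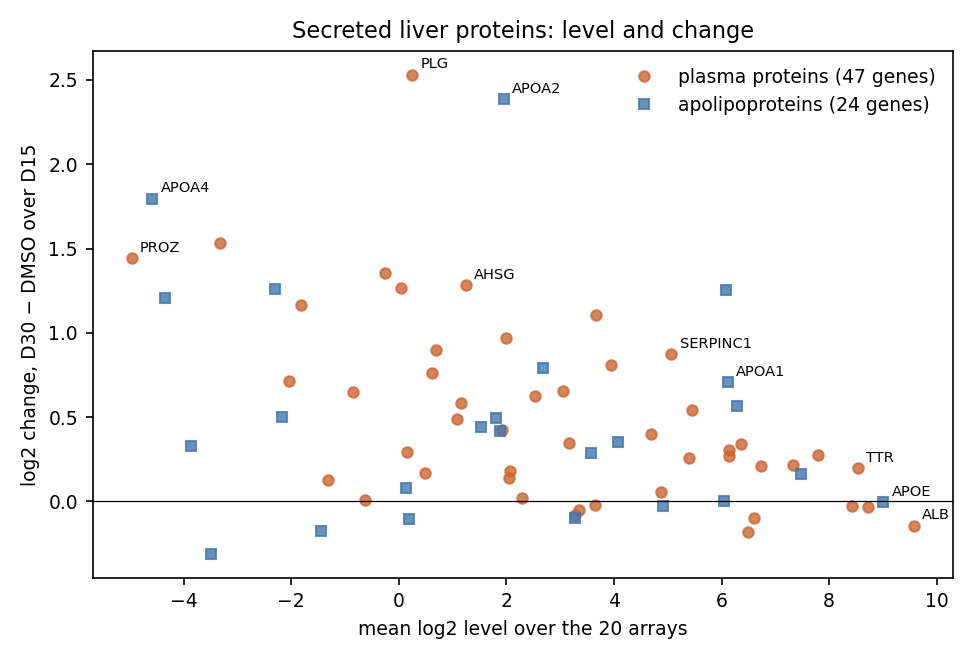
Fitted log2 change from D15 to D30 − DMSO (vertical) against the mean log2 level over the 20 arrays (horizontal), each point 1 of 47 plasma proteins (orange circles) or 24 apolipoproteins and lipoprotein assembly genes (blue squares), with some genes named. ALB, APOE and TTR at the bright end lie near 0, and the changes above 1 lie mostly at middle and low levels.

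Apolipoproteins and lipoprotein assembly genes had a median change of 0.38 over 24 members, 18 of them (75%) above 0, beside 48.7% of all genes. With the slide as a block the median was 0.40, and within slides 2, 3 and 4 it was 0.37, 0.59 and 0.34. The mean level of the group did not overlap between the arrays, from 1.75 to 2.10 at D15 and from 2.27 to 2.60 at D30 − DMSO. Of 31 gene groups examined, 4 had such a level at D30 − DMSO above D15 on all arrays and 0 below: apolipoproteins, clock and immediate early genes, fatty acid and triglyceride synthesis, and the small group of endothelial, stellate and immune markers. In 6 of the 24 apolipoprotein group members the arrays did not overlap, all higher at D30 − DMSO, beside 1.35% of all genes higher and 0.879% lower.

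APOA2 (NM_001643), a structural protein of high-density lipoprotein, was at 1.44, 1.43, 1.17 and 2.61 at D15 and at 3.90, 4.08, 3.89 and 4.32 at D30 − DMSO. All D30 − DMSO arrays lay above the highest D15 array by more than 1 unit. The change was 2.39 (SE 0.45, limma adjusted p = 0.0735; 0.0294 with the slide as a block), and 2.64, 2.47 and 2.43 within slides 2, 3 and 4. Among members chosen after their values were seen, APOC3, an inhibitor of triglyceride clearance, had a change of 1.26 (limma adjusted p = 0.918). It stood at 5.78, 5.70, 5.42 and 6.73 at D15 and at 7.30, 7.26, 7.11 and 6.99 at D30 − DMSO. APOA5, which promotes triglyceride clearance, had a change of 1.26 (limma adjusted p = 0.987). APOA4 was well above background on 0 D15 arrays and 1 D30 − DMSO array and was at least 1.24-fold higher (limma adjusted p = 0.109). APOA1, the main protein of high-density lipoprotein, had a change of 0.71 (-0.11 to 1.53) with overlapping arrays. APOE, the most abundant member, had a change of -0.01 (-0.41 to 0.40).

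Bile acid synthesis and transport had a median change of 0.45 over 34 members, with 28 (82.4%) above 0, beside 48.7% of all genes. The median ran from 0.31 without D15 replicate 1 to 0.56 without D30 − DMSO replicate 4. It was 0.33 with the slide as a block, 0.59, 0.48 and 0.09 within slides 2, 3 and 4, and 0.39 over members well above background on all 8 arrays. With normexp background correction it was 0.21. No member passed an adjusted p below 0.05, and 6 of 34 did not overlap, all higher at D30 − DMSO, beside 1.35% of all genes. AKR1D1 (NM_005989), the reductase that shapes the steroid ring of bile acids, had levels of -5.69, -4.12, -5.64 and -3.33 at D15 and of -2.38, -2.49, -2.65 and -2.33 at D30 − DMSO. It was well above background on 2 D15 arrays and on all D30 − DMSO arrays, with a fitted change of 2.23 (SE 0.45, limma adjusted p = 0.116). SLCO1B1, an uptake carrier of the hepatocyte for bile acids and drugs, stood at -0.33, 0.03, -0.30 and 0.28 at D15 and at 1.13, 1.07, 1.00 and 0.74 at D30 − DMSO. Its groups did not overlap, with a change of 1.06 (limma adjusted p = 0.229). CYP7A1, the rate-limiting enzyme of bile acid synthesis, was at -1.27, -1.64, -2.13 and -0.51 at D15 and at 0.28, 0.58, 0.28 and -0.80 at D30 − DMSO. Replicate 4 of D30 − DMSO lay among the D15 arrays, and the change was 1.48 (-0.01 to 2.96). SLCO1B1 and CYP7A1 were picked after their values were seen. CYP27A1, the brightest member, had a change of 0.28.

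Gluconeogenesis and hepatic sugar metabolism had a median change of 0.30 over 32 members. Of these, 28 (87.5%) were above 0, beside 48.7% of all genes. In 2 of them, G6PC1 and PKLR, the adjusted p was below 0.05, beside 10 (0.0453%) of all genes. The median was 0.28 with the slide as a block and 0.37, 0.35 and 0.03 within slides 2, 3 and 4. IGF1, the growth factor that liver secretes, had a change of 0.99 with no overlap, and GYS2, the glycogen synthase of liver, had 0.70; both were picked after their values were seen and had limma adjusted p of 1.00. ARG1 (NM_000045), the arginase of the urea cycle, was at 1.52, 0.90, 0.43 and 1.84 at D15 and at 3.14, 3.24, 3.08 and 2.06 at D30 − DMSO, a change of 1.71 (limma adjusted p = 0.635). OTC, the ornithine transcarbamylase of the same cycle, had a change of 1.41 (limma adjusted p = 0.965). Their list of 62 amino acid catabolism and urea cycle genes nevertheless had a median of 0.06, with 35 (56.5%) above 0, beside 48.7% of all genes. It was 0.07 with the slide as a block and 0.28, 0.16 and -0.15 within slides 2, 3 and 4, and on leaving out 1 array it ran from -0.0047 (D15 replicate 1) to 0.14 (D30 − DMSO replicate 4).

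Core clock and immediate early genes had a median change of 0.27. Of 42 members, 36 (85.7%) were above 0, beside 48.7% of all genes. The median was 0.31 with the slide as a block, and 0.37, 0.44 and 0.24 within slides 2, 3 and 4. The group level was -0.30, -0.28, -0.31 and -0.10 at D15 and 0.27, 0.09, 0.07 and 0.06 at D30 − DMSO, with no overlap. In 9 of the 42 members the arrays did not overlap, all higher at D30 − DMSO (1.35% of all genes), and none passed an adjusted p below 0.05. BHLHE40 (NM_003670), a repressor in the clock that also answers to hypoxia, stood at -2.12, -1.92, -2.08 and -1.28 at D15 and at -0.27, -0.62, -0.71 and -0.43 at D30 − DMSO. Its groups lay apart, with a change of 1.34 (SE 0.27, limma adjusted p = 0.116; 0.069 with the slide as a block). FOS, a transcription factor induced within minutes of stimulation, was at -2.02, -2.14, -2.02 and -1.08 at D15 and at -0.66, -0.82, -0.87 and -0.58 at D30 − DMSO. Its change was 1.08; those of KLF10 (1.12), DUSP5 (1.12) and EGR2 (0.84), which the same stimuli induce, had limma adjusted p of 0.0735, 1.00 and 1.00. These 4 genes were named after their values were seen. Of the core clock genes, CLOCK (-0.17), BMAL1 (-0.04) and PER2 (-0.01), likewise named with values seen, had overlapping arrays and intervals inside 2-fold. The time of day of the harvests was not given in the sources used here.

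Glucocorticoid targets, of interest because hydrocortisone was present throughout, had a median change of 0.23 over 26 members. Of these, 21 (80.8%) were above 0, beside 48.7% of all genes, and G6PC1 was the only one at an adjusted p below 0.05. Several members, G6PC1 among them, are also in other groups described here, so these groups are not independent. The median was 0.25 with the slide as a block and 0.29, 0.41 and 0.17 within slides 2, 3 and 4. TAT, the tyrosine aminotransferase often used to mark this response, named after its values were seen, had a change of 0.23 (-0.61 to 1.07) with overlapping arrays, and MT2A, a metallothionein and the brightest member, -0.06. Xenobiotic-metabolising enzymes had a median of 0.18 over 78 members, with CYP3A4 the only one at an adjusted p below 0.05 and 7 not overlapping, all higher (1.35% of all genes). It was 0.17 with the slide as a block, 0.40, 0.22 and -0.03 within slides 2, 3 and 4, and 0.09 without D15 replicate 1. CES1, the carboxylesterase that was the brightest member, had a change of -0.03 (-0.39 to 0.33), and CYP2B6 0.39 (-0.15 to 0.93). CYP2E1 was at -3.82, -4.23, -4.82 and -3.43 at D15 and at -1.91, -2.25, -2.12 and -3.83 at D30 − DMSO, where replicate 4 fell among the D15 arrays. With DMSO over the same days, the fitted change was 4.70 for CYP2B6 and 6.30 for CYP2E1.

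Fatty acid and triglyceride synthesis had a median change of only 0.12 over 32 members, although its mean level lay from 1.85 to 1.99 at D15 and from 2.11 to 2.20 at D30 − DMSO. The median was 0.07 with the slide as a block, 0.14, 0.20 and 0.09 within slides 2, 3 and 4, 0.07 without D30 − DMSO replicate 1 or D15 replicate 2, and 0.05 over members well above background on all 8 arrays. THRSP, a regulator of lipid synthesis, was at -4.57, -5.37, -4.11 and -4.25 at D15 and at -3.05, -2.50, -2.71 and -2.22 at D30 − DMSO. It was well above background on 1 D15 array and all D30 − DMSO arrays, with a fitted change of 1.95 (limma adjusted p = 0.837). G0S2, an inhibitor of the fat-cell lipase, had a change of 1.31 (limma adjusted p = 0.116), and FABP1, the fatty acid binding protein of liver, 1.17 (limma adjusted p = 1.00); both lay apart between the groups and were named after their values were seen. CIDEC, a lipid droplet protein and the brightest member, had a change of 0.03 (-0.30 to 0.37). Among liver transcription factors and nuclear receptors the median was 0.06 over 49 members, and 0.04 with the slide as a block. NR0B2, the small heterodimer partner that restrains bile acid synthesis, had the largest change, 1.29 (SE 0.32, limma adjusted p = 0.416), with no overlap. HNF4A, read by 1 dim probe, had a change of -0.09 (-0.54 to 0.37).

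**Figure D4:**
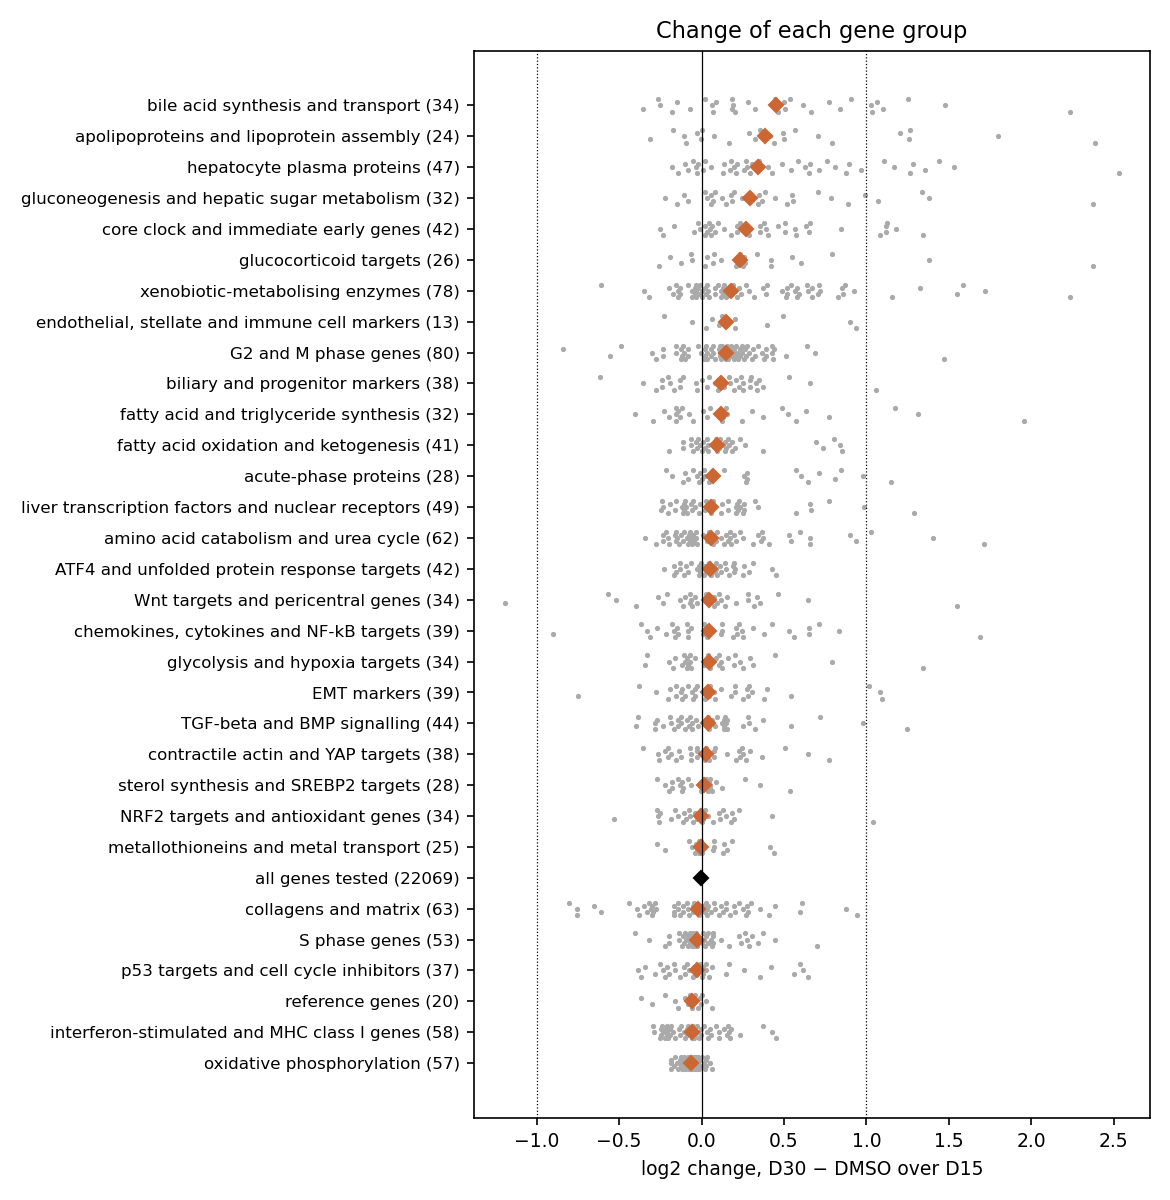
Fitted log2 change from D15 to D30 − DMSO of each member (grey points) of 31 gene groups, with the group median (orange diamond), the median of all 22069 genes (black diamond) and the number of members in brackets; dotted lines mark 2-fold. Bile acid, apolipoprotein and plasma protein groups have medians from 0.34 to 0.45, and the lowest medians, for oxidative phosphorylation, interferon and reference genes, lie at -0.06.

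Among proliferation genes no member passed the test. S phase genes had a median change of -0.03 over 53 members, and 47 had an interval inside 2-fold, a share near the 83.5% of all genes. The median was 0.03 with the slide as a block and 0.43, -0.26 and 0.10 within slides 2, 3 and 4, and ran from -0.17 without D15 replicate 1 to 0.11 without D15 replicate 4. Their mean level was -0.80 ± 0.36 (SD, n = 4) at D15 and -0.78 ± 0.26 at D30 − DMSO. MCM7, a subunit of the replicative helicase, had a change of -0.03 (-0.41 to 0.35). CDK1, the kinase that starts mitosis, was at -2.17, -1.22, -1.33 and -0.62 at D15 and at -1.39, -0.92, -1.02 and -0.56 at D30 − DMSO, a change of 0.36 (-0.25 to 0.98), with 1.25, -0.17 and 0.42 within slides 2, 3 and 4. MKI67, the usual proliferation marker, had a change of 0.15 (-0.35 to 0.65). G2 and M phase genes had a median of 0.15 with 61 of 80 (76.2%) above 0, beside 48.7% of all genes, but no member passed and none lay apart. Their level was lowest in D15 replicate 1, at -2.33, and highest in D30 − DMSO replicate 4, at -1.26. The median was -0.02 without the first of these arrays and 0.01 without the second, and 0.57, -0.17 and 0.35 within slides 2, 3 and 4.

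Genes of the respiratory chain and the housekeeping genes had small fitted changes, most of them below 0. All 57 oxidative phosphorylation genes had an interval inside 2-fold, as had 19 of 20 reference genes, 56 of 58 interferon-stimulated and MHC class I genes and 27 of 28 sterol synthesis genes. Over all genes 83.5% had such an interval, and 10257 of the 11034 of higher level, so the share of reference genes was near that of bright genes. The median change was -0.06 for oxidative phosphorylation, with 9 of 57 (15.8%) above 0, -0.06 for reference genes, with 3 of 20 (15%) above 0, and -0.06 for the interferon group, with 18 of 58 (31%) above 0, beside 48.7% of all genes. With the slide as a block these medians were -0.06, 0.01 and -0.0049, and within slides 2, 3 and 4 that of oxidative phosphorylation was 0.11, -0.01 and -0.18. Sterol synthesis genes had a median of 0.01. TBP, the TATA-binding protein often used to normalise, was at -0.93, -0.44, -0.53 and -0.30 at D15 and at -0.57, -0.57, -0.59 and -0.56 at D30 − DMSO. Its arrays overlapped, and it had a change of -0.02 (-0.34 to 0.30). ACTB had a change of -0.07 (-0.46 to 0.33) and GAPDH of -0.16 (-0.65 to 0.33). The biliary and progenitor markers had a median of 0.12 over 38 members, 0.07 with the slide as a block, 0.11, 0.19 and -0.10 within slides 2, 3 and 4, and 0.06 without D15 replicate 4, 0.08 without D30 − DMSO replicate 2 and 0.18 without D30 − DMSO replicate 4. KRT19, a keratin of bile ducts, was at 7.21, 7.35, 7.75 and 7.35 at D15 and at 7.23, 7.11, 7.21 and 7.34 at D30 − DMSO, a change of -0.19 (-0.60 to 0.21). KRT7 had a change of 0.13 (-0.20 to 0.47) and SOX9, a transcription factor of bile duct and progenitor cells, of 0.19 (-0.36 to 0.74).

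Markers of other cell types were detected unevenly, fewer for endothelial and stellate cells than for immune cells. Among those examined for endothelial, stellate and immune cells, CDH5 of 4, RGS5 of 4, and PTPRC, CD14 and CD3D of 4 were well above background on all 8 arrays. Over a wider list of 36 such genes, 13 could be tested, with a median change of 0.15 and 0.00 with the slide as a block, and its mean level ran from -2.20 to -1.74 at D15 and from -1.73 to -1.67 at D30 − DMSO. CD14, a receptor for bacterial lipopolysaccharide that hepatocytes also make, was at 2.81, 2.81, 2.99 and 2.94 at D15 and at 3.48, 3.37, 3.56 and 3.11 at D30 − DMSO. Its groups lay apart, with a change of 0.49 (limma adjusted p = 0.947).

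**Figure D5:**
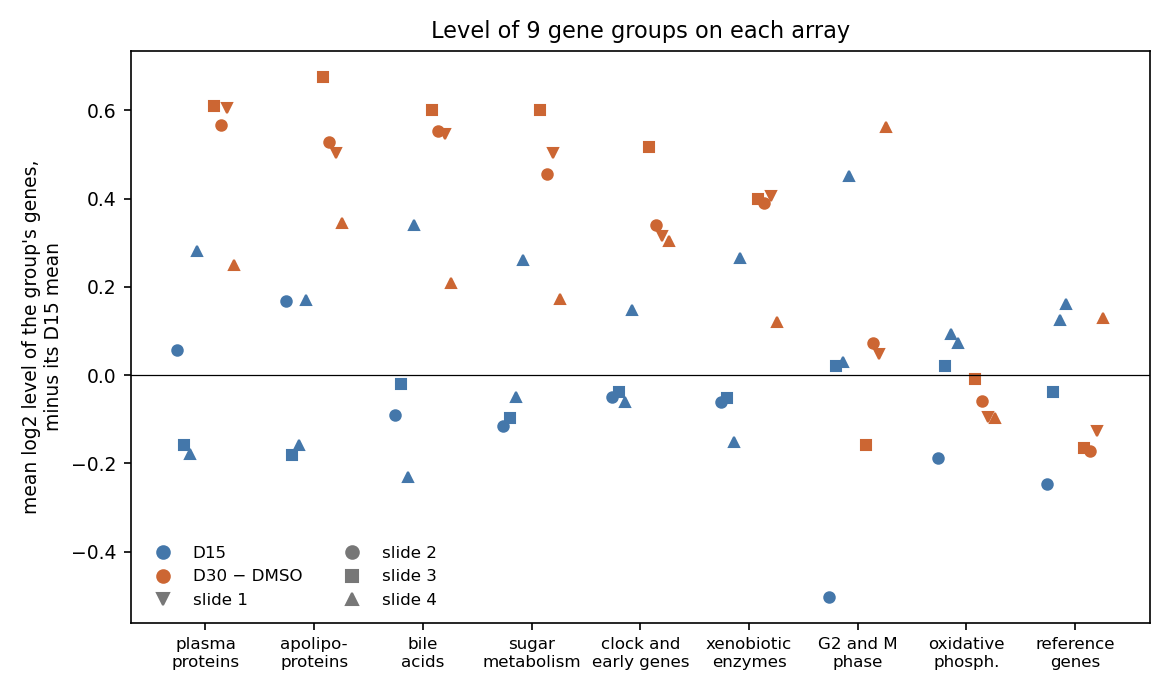
Mean log2 level of the members of 9 gene groups on each array, drawn relative to the D15 mean of the group; blue points are D15, orange points D30 − DMSO and the shape gives the slide. Apolipoproteins and clock and early genes do not overlap between the groups, D30 − DMSO replicate 4 on slide 4 is the lowest orange point of the liver groups, and G2 and M phase levels are spread most widely within each group.

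No gene passed the test in the downward direction. Among genes well above background on all 8 arrays and at an unadjusted p below 0.05, the 10 largest fitted falls with arrays lying apart were those of ADARB2, GNPDA2, ZNF177, RSRP1, COL4A6, TREM2, L3MBTL1, HSPA1B, CBLN2 and ZBTB46, from -0.97 to -0.70. ADARB2 (NM_018702), a brain-enriched relative of the RNA-editing enzymes, was at -2.32, -2.52, -2.38 and -2.81 at D15 and at -3.13, -3.30, -3.36 and -4.09 at D30 − DMSO. All D30 − DMSO arrays lay below all D15 arrays, and the change was -0.97 (SE 0.20, limma adjusted p = 0.181; -1.09 with adjusted p = 0.0186 with the slide as a block). COL4A6 (NM_033641), a basement membrane collagen chain, was at 2.55, 2.13, 2.06 and 1.99 at D15 and at 1.27, 1.37, 1.96 and 0.92 at D30 − DMSO. D30 − DMSO replicate 3 almost reached the D15 arrays, and the change was -0.80 (limma adjusted p = 0.474; 0.0492 with the slide as a block). These were the 2 genes (0.00906%) lower at an adjusted p below 0.05 with the slide as a block, beside 16 (0.0725%) higher. HSPA1B, the inducible heat shock protein of 70 kilodaltons, had a change of -0.70 (limma adjusted p = 1.00). L3MBTL1, a reader of methylated histones, had -0.72, and the value was 0.92 when spots marked as outliers were kept. MMP7, a matrix-degrading protease, lay apart at 3.51, 4.03, 4.19 and 3.38 against 3.12, 3.12, 3.24 and 3.18, with a change of -0.61 (-1.16 to -0.06). Over 63 collagens and matrix genes the median was -0.02, with 1 member lying apart upward and 4 downward, beside 1.35% and 0.879% of all genes.

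The second step was tested against the first. The change from D15 to D30 − DMSO minus the change from D4 to D15 was called for 751 genes (3.4%), 273 with a positive difference (1.24%) and 478 with a negative one (2.17%). These steps share the D15 arrays. Among plasma proteins 36 of 47 had a called negative difference, as had 27 of 78 xenobiotic-metabolising enzymes, 22 of 62 amino acid catabolism genes, 18 of 28 acute-phase proteins, 12 of 24 apolipoproteins and 10 of 34 bile acid genes. G2 and M phase genes had 38 of 80 with a called positive difference and S phase genes 20 of 53. TTR had a change of 4.18 from D4 to D15 and of 0.20 afterwards (adjusted p of the difference 2.82e-06). ALB had a change of 2.5 and then of -0.14 (adjusted p of the difference 0.00072), and CYP3A4 of 4.18 and then of 1.59 (adjusted p of the difference 0.000727). CDK1 had a change of -3.30 and then of 0.36. BHLHE40 had -1.65 in the first step and 1.34 in the second, and ADARB2 had 0.96 and then -0.97. Both were picked for their change in the second step, which did not pass (limma adjusted p = 0.116 and 0.181). The D15 arrays enter both steps with opposite signs, so a turn of these genes was not tested.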

How the data were processed

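RNA of 20 HepaRG cultures was labelled with 1 dye and read on Agilent SurePrint arrays. The authors deposited Feature Extraction output for each array (version 10.7.1.1 per the file headers, 10.7.3.1 per the labels), whose processed signal is an intensity, background-subtracted within the array. The median spot and background intensity in the deposited files served for the normexp alternative. A second deposited table, in log2 relative to an unstated baseline, came with column medians from -0.20 to 0.17; over 21335 probes it matched the values used here, apart from 1 baseline per probe, with a median absolute difference of 3.53e-07.

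Spots flagged as outliers were left out, spots of a probe averaged, signals scaled to a common 75th percentile, floored at 1 and put on the log2 scale relative to that percentile. Kept were probes that 1 or more of the 5 conditions showed well above background on each of its 4 arrays (26351 of 42405). The brightest probe stood for each of 22069 genes, of which 3675 had more than 1. RefSeq accessions gave a current symbol for 24826 probes, and the other 17579 kept the name of the array. No column belonged to another series.

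Group means were fitted over the 20 arrays with limma 3.58.1 (R 4.3.3, package data.table, version 1.17.8), at the methods' thresholds of adjusted p below 0.005 and 2-fold; limma replaced the methods' t-test because each condition had 4 arrays. The number of arrays limits the precision. 111 genes lacked a value on at least 1 of the 8 arrays, and the fit used those measured. A probe well above background on no array of a condition has only a bound, set by the dimmest signals that pass as well above background. This bound was computed in the main processing only, and fitted changes under an alternative could be smaller.

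Named are all genes at adjusted p below 0.05, the 10 largest rises and falls (unadjusted p below 0.05, no overlap, well above background on all 8 arrays), the brightest and most changed member of each of 31 gene groups, and some standard markers; some of these genes are not reported here. The comparison, the gene groups and this rule were chosen with earlier results of these data known. Overlap of arrays is a description: an exact test of 4 against 4 cannot go below p = 0.0286.

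On simulated data for this comparison (22069 genes, 200 of them changed), 57.5% of genes changed 2.5-fold and 83% of those changed 4-fold were recovered, with 0 unchanged genes called. The simulated noise was independent between arrays, whereas the real arrays of a slide were correlated (consensus correlation 0.43). These rates may therefore not hold for the real arrays. Alternatives were quantile and normexp normalization, the deposited matrix, other filters, every probe, a floor of 10, a fit of the 8 arrays, the methods' t-test, slide, scan session or replicate number as a block, and leaving out each array. The slide as a random block, outlier spots kept and the first scan session alone were chosen after seeing the data.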

Additional observations from a re-analysis of the deposited data

Results flagged for a closer look

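Within each group of 4 arrays, an array was picked out where its gap to the nearest other array filled most of the range of the group (Dixon's ratio at 95%). Of 258 sets examined, 34 (13.2%) were picked, 22 of genes and 12 of gene group levels; chance alone picks about 1 in 20, and sets of related genes are not independent. D30 − DMSO replicate 4 accounted for 18, D15 replicate 1 for 6 and D15 replicate 4 for 5.

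D30 − DMSO replicate 4 was low for ARG1 (2.06), ASS1 (6.15), CLDN3 (-0.45), CYP3A4 (2.48), FGL1 (6.22), G6PC1 (0.57) and SLC30A10 (-1.60). It was high for ACTB (9.14), COL4A1 (-1.20), CYP27A1 (5.15), GAPDH (6.67) and GLUL (4.98). Among gene group levels it was low for plasma proteins (3.67), xenobiotic-metabolising enzymes (2.26), bile acid genes (0.18), amino acid catabolism (1.80) and biliary markers (-0.31), and high for reference genes (5.42). This array shares slide 4 and the second scan session with D15 replicates 3 and 4.

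D15 replicate 4 was high for ANGPTL8 (-1.76) and TGFBI (5.66), and for the levels of amino acid catabolism (2.09), glucocorticoid targets (2.06) and clock and immediate early genes (-0.10). D15 replicate 1 was high for L3MBTL1 (-1.82), ZNF177 (-1.95) and the contractile genes (0.85), and low for OMD (-0.41), SKA1 (-8.53) and the ATF4 targets (1.83). D15 replicate 2 was low for HP (9.80) and D15 replicate 3 high for MT2A (8.86). D30 − DMSO replicate 1 was low for MKI67 (-2.41) and high for clock and immediate early genes (0.27), and D30 − DMSO replicate 2 was high for ANGPTL8 (0.31).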

How the results depend on the processing

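The direction of the 3 called genes held under all alternatives in which they were tested, but their calls did not. FAM99A ranged from 0.89 to 4.90, with adjusted p (limma or the methods' t-test) up to 0.84. The long intergenic RNA ranged from 1.32 to 1.47, with adjusted p (limma or the methods' t-test) up to 0.20. ANGPTL8 ranged from 1.78 with normexp to 3.02 and lost its call in a fit of the 8 arrays alone (adjusted p = 0.0143), in that fit with a replicate block (0.0733) and by the methods' t-test (0.258). The count of 3 calls became 1 without the filter on dim probes or with every probe tested, 5 with the scan session as a block, 6 with a floor of 10 or with the slide as a random block, and 0 with the 8 arrays alone or the methods' t-test. Leaving out 1 array gave 1 to 8, with 8 only without D15 replicate 4 and 1 for each of the other 7. At the methods' p below 0.005 without adjustment and above 2-fold, the t-test gave 37 genes higher and 0 lower.

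The 10 genes at adjusted p below 0.05 became 19 with normexp, 5 with only genes well above background on all 8 arrays, 4 with the 8 arrays alone, 18 with the slide as a block, 24 as a random block, 32 in the first scan session and 0 by the methods' t-test (805 at unadjusted p below 0.05); leaving out 1 array gave 4 (D30 − DMSO replicate 1) to 17 (D15 replicate 4). The 645 genes at unadjusted p below 0.05 became 1121 without the filter, 1502 and 1309 with the slide as a fixed and random block, 1173 with the scan session as a block and 1230 in the first session, and 439 to 982 on leaving out 1 array. The 751 genes that differed between the steps became 1312 and 1412 with the slide as a fixed and random block, 1334 with the session as a block and 398 in the first session, and 474 to 659 on leaving out 1 array. Intervals inside 2-fold held for 16674 to 21317 genes where the same 22069 were tested, for 17502 of 19805 genes well above background on all 8 arrays, for 19871 of 35372 without the filter and for 22130 of 26351 probes. The causes were not tested.

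Whether the replicate numbers pair the arrays cannot be told from 4 pairs. Deviations of arrays with the same number correlated with r from -0.33 to 0.59, with a median of 0.25. The highest of these pairs shared slide 4, and the lowest crossed the scan sessions. Not every array correlated best with its own number. With the replicate number as a block, 3 genes were called, 16 had an adjusted p below 0.05, 1154 an unadjusted p below 0.05 and 1138 differed between the steps. With this replicate block in the 8 arrays alone the counts were 0, 0 and 1044.

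Of gene group medians, 752 values moved by less than the replicate spread and 16 by more; of values of named genes, 2335 kept their side of the threshold or moved by less than that spread, 33 lost the call, 18 gained it and 26 that were not called moved by more. Dim genes had smaller changes with normexp, such as DYDC2 at 0.20.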
